A study of Mus musculus with 9 samples.

Results

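The genes of the respiratory chain and of ATP synthase were followed in mouse cerebellum after 3-acetylpyridine (3-AP), with and without prior PLX3397. They were chosen by symbol alone: rows starting with Nduf, Uqcr, Cox4 to Cox8 or Atp5, the 4 succinate dehydrogenase genes Sdha to Sdhd, and the protein genes of mitochondrial DNA. Of 53924 named rows 120 met this rule, 107 nuclear and 13 mitochondrial, after 7 symbols ending in ps were left out. By complex the nuclear rows were 41 for complex I, 4 for complex II, 8 for complex III, 21 for complex IV, 18 for complex V, 8 for assembly or regulatory factors and 7 numbered pseudogene rows. Bulk RNA-seq of total RNA from cerebellum gave 9 libraries. The 3 control libraries came from mice given saline, the 3 libraries of the 3AP group from mice given 3-AP, and the 3 of the PLX3AP group from mice given PLX3397 and then 3-AP. No library of mice given PLX3397 alone was analysed here. 3-AP is a nicotinamide analogue known for destroying the inferior olive, whose climbing fibres feed the cerebellum, and PLX3397 blocks the receptor for CSF1, a survival signal for microglia. No source used here gives the strain, age, sex, dose or time, or says whether the libraries of a group came from separate animals. Each p-value therefore measures only the spread between these libraries.

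The respiratory chain passes electrons from NADH (complex I) and succinate (complex II) through ubiquinone, complex III and cytochrome c to oxygen at complex IV. The proton gradient made by complexes I, III and IV drives ATP synthase, here called complex V. Complex II is encoded in the nucleus alone, whereas the other complexes join nuclear subunits to a few core subunits made from mitochondrial DNA, so that transcripts of separate genomes have to be supplied together. Neurons depend heavily on this pathway, and in the cerebellum it serves both the large Purkinje cells and the very numerous granule cells.

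Several mitochondrial genes share sequence with a nuclear insertion on chromosome 1, and this bears on the values given for them. GENCODE M21 annotates pseudogenes there that match 7 of the 13 mitochondrial protein genes at 99% identity or more over at least 200 bases. The starts of 2 pairs are shown, because a read from them can hardly be placed in one copy and not the other. The first 60 bases of mt-Nd3 (chrM:9459-9806, GRCm38, plus strand) and of its nuclear copy Gm28438 (chr1:24612775-24613119), with the base that differs in capitals, read:
mt-Nd3: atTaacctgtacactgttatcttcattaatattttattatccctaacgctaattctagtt
Gm28438: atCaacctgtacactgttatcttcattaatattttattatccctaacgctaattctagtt
The substitution T3C, counted from 1 at the first base of mt-Nd3, was the only one over the 345 bases compared. For mt-Co2 (chrM:7013-7696, plus strand) and its copy Gm28661 (chr1:24614885-24615565) the same stretch reads:
mt-Co2: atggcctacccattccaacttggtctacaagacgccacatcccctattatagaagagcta
Gm28661: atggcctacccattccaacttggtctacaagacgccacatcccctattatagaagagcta
These 2 rows did not differ at any of the 681 bases compared.

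Libraries held 18355195 to 22234150 estimated counts in named rows. Nuclear members took 1.21 to 1.52% of them and the mitochondrial protein genes, without their nuclear copies, 2.61 to 4.91%. Of the 120 members, 106 had enough counts to be tested, 93 of 107 nuclear and 13 of 13 mitochondrial. The other 14 were the 7 numbered pseudogene rows, a second Atp5o row, 4 rows named like a subunit (Ndufb11b, Ndufa11b, Ndufs6b and Cox6c2), the last 3 of which M21 annotates as processed pseudogenes, and the isoforms Cox8b and Cox8c. Cox8b reached at most 12 counts in a library and Cox8c was at 0 in all 9. Marker genes were summed in CPM, each gene's counts scaled to library size. Granule cell markers summed to 4736 to 5857, Purkinje cell markers to 7241 to 8920, and forebrain markers to 7.24 to 11.2, with the forebrain gene Dlx5 at 0 in 7 of 9 libraries.

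Summed over their nuclear genes, complexes V, IV and I held the most transcripts per unit of length. The sums below run over 18 rows for complex V, 21 for IV, 41 for I, 8 for III and 4 for II. They therefore do not rank single genes. In TPM, which scales counts to transcript length and library total, the control libraries summed to 13398 ± 332 for complex V, 11905 ± 617 for complex IV, 11505 ± 673 for complex I, 4271 ± 226 for complex III and 893 ± 20.5 for complex II (SD, n = 3). Complexes IV and I did not differ beyond their spread. In the 3AP libraries the sum for complex V was 11394 to 12258 TPM, below the control range of 13072 to 13735 TPM, and in PLX3AP it was 12397 to 14263 TPM. The sum for complex IV was likewise lower without overlap, at 10350 to 11154 TPM in 3AP against 11249 to 12474 TPM in control. For complexes I, II and III the 3AP and control ranges overlapped. The highest nuclear member of all was Atp5b, the catalytic beta subunit of ATP synthase, at a mean of 2710 TPM over the 9 libraries, followed by Cox4i1 at 1971 TPM and Cox8a at 1676 TPM. The 8 assembly or regulatory factors together held 259 to 298 TPM in any library, far below any complex.

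After 3-AP the nuclear genes of the chain stood slightly but widely below control. Of the 93 tested, 88 had a lower mean in 3AP and 5 a higher one, that is 94.6% lower against 49.7% of all 16634 genes tested, with a median log2 fold change of -0.17 against 0.00 for all genes. The single-gene differences were small. By edgeR's quasi-likelihood test with Benjamini-Hochberg adjustment over all genes, 1 nuclear member was called at an adjusted p under 0.05, Cox6a2, which fell, and 28 were lower at an unadjusted p under 0.05 against 0 higher, where 1078 of all 16634 genes were lower and 1748 higher. Over all genes tested 1.18% were called lower and 3.75% higher, so 1 call among 93 is near the background. All 3 values in 3AP lay below all 3 control values for 36 of the 93, or 38.7%, against 11.0% of all genes, and lay above for 0 of the 93, against 13.7%. In bulk tissue, fewer cells of a type and less RNA per cell cannot be told apart.

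The shift was visible library by library. Each library's median deviation of the 93 nuclear genes from their mean over the 9 libraries was 0.03, -0.02 and 0.23 (log2) in control replicates 1 to 3, -0.02, -0.08 and -0.18 in 3AP, and -0.02, 0.14 and -0.03 in PLX3AP. Every 3AP library was below every control library, but 3AP replicate 1 and control replicate 2 shared a value to 2 decimals. Control replicate 3 stood apart from the other controls. Without it the median log2 fold change of the nuclear genes was -0.08 and 77 of 93 were lower, and without 3AP replicate 3 it was -0.12 with 81 lower. The summed choroid plexus markers, a sign of tissue from outside the cerebellar parenchyma, were 5274 CPM in control replicate 3 against 313 and 596 in the other controls. They were 924 to 2623 CPM in 3AP and 2824, 191 and 2579 CPM in PLX3AP replicates 1 to 3. The part of this tissue in the result was not tested.

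**Figure D1:**
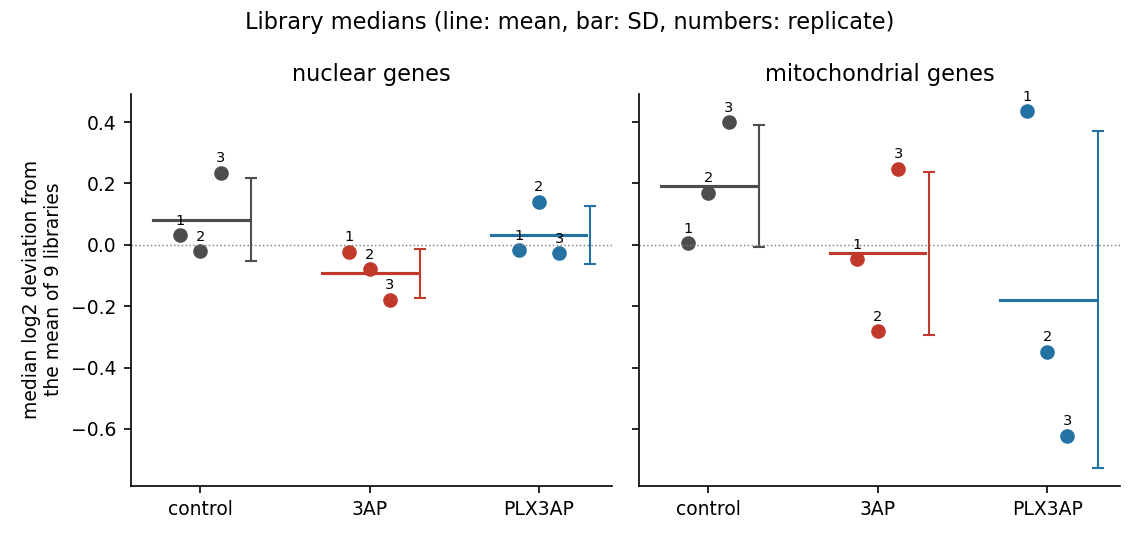
Median log2 deviation of the 93 nuclear and the 13 mitochondrial genes in each library from the mean of the 9 libraries; each point is a library with its replicate number, lines are group means and bars the SD (n = 3). Nuclear medians stay between -0.18 and 0.23, whereas mitochondrial medians spread from -0.62 to 0.44, with PLX3AP replicate 1 at the top and PLX3AP replicates 2 and 3 at the bottom.

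Respiratory chain transcripts are short and the libraries differed in how counts followed transcript length. The median effective length of the tested nuclear members was 19.4% of that of all tested genes, and of the mitochondrial members 21.7%. With offsets that remove each library's trend over effective length, edgeR called 27 nuclear members lower in 3AP and 0 higher, against 3.31% of all genes called lower in the same fit. The median was then -0.22 with all 9 libraries, beside -0.05 for all genes, and again -0.22 without control replicate 3, where 16 were called against 1.71% of all genes. With offsets for length and GC content together, an alternative chosen after seeing the data, 48 of 93 were called lower, against 7.67% of all genes, and 35 without control replicate 3, against 4.99%. With length offsets the 27 calls were 6 of 38 genes for complex I, 0 of 4 for complex II, 4 of 8 for complex III, 7 of 18 for complex IV, 9 of 17 for complex V and 1 of 8 assembly factors. The number of members called therefore rested on this choice, while the direction of the median did not change in any of the 23 alternatives run. Calls and adjusted p-values of single genes are those of edgeR without offsets unless another fit is named.

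Complex I takes electrons from NADH. All 38 tested nuclear genes of complex I had a lower mean in 3AP than in control, with a median log2 fold change of -0.14 (range -0.31 to -0.06), and 11 had all 3 values below control, where 11.0% of all genes did. The 38 include Ndufb4c, which M21 annotates as a processed pseudogene. Ndufb2, an accessory subunit of the membrane arm, measured 70.0, 70.7 and 78.9 CPM in control, 59.3, 59.0 and 61.9 in 3AP and 64.6, 68.7 and 57.5 in PLX3AP. The 3AP and control values did not overlap, and the log2 fold change was -0.28 (SE 0.08, adjusted p = 0.077 by edgeR, not called). Ndufs1, the largest core subunit and a carrier of iron-sulfur clusters, measured 223, 203 and 208 CPM in control, 186, 176 and 189 in 3AP and 211, 211 and 196 in PLX3AP. Its 3AP values were the lowest 3 of the 9, at a log2 fold change of -0.20 against control (SE 0.07, adjusted p = 0.129) and 0.17 in PLX3AP against 3AP (SE 0.07, adjusted p = 0.327), neither called. Ndufs6, an accessory subunit with a zinc site, had the most negative value of complex I, -0.31 (SE 0.11, adjusted p = 0.171), and Ndufb11, an accessory subunit of the membrane arm, the least negative, -0.06 (SE 0.11, adjusted p = 0.845). The 7 core genes had a median of -0.08 and the 31 accessory genes one of -0.14, a difference that was not tested.

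Ndufs4 followed another course. This accessory subunit, whose loss in mice causes a fatal encephalopathy, measured 76.1, 70.2 and 80.2 CPM in control, 63.9, 58.8 and 65.7 in 3AP and 65.1, 60.2 and 46.5 in PLX3AP. All 6 libraries of the treated groups lay below all 3 controls. Its log2 fold change in PLX3AP against control, -0.40 (SE 0.11, unadjusted p = 0.0035, adjusted p = 0.291), had the lowest unadjusted p of the nuclear genes of complex I in that comparison and was not called.

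Complex II, succinate dehydrogenase, differed least. Its 4 genes had a median log2 fold change of -0.08 in 3AP against control, from -0.15 to -0.06. Sdha, the flavoprotein that oxidises succinate, measured 606, 597 and 594 CPM in control, 578, 584 and 547 in 3AP and 591, 629 and 592 in PLX3AP. Its 3AP values lay just under the other 6, at a log2 fold change of -0.07 against control (SE 0.07, adjusted p = 0.647). Sdhd, a membrane anchor, was lowest at -0.15 (SE 0.08, adjusted p = 0.383), with no overlap between 3AP and control, and Sdhc, the other anchor, was at -0.06 (SE 0.08, adjusted p = 0.789), with overlap.

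Complex III hands electrons from ubiquinol to cytochrome c. Its 8 nuclear genes were all lower in 3AP, with a median of -0.18. Uqcrb, a subunit close to the ubiquinone site, measured 86.9, 78.4 and 94.3 CPM in control, 71.9, 56.8 and 65.2 in 3AP and 82.9, 63.6 and 53.2 in PLX3AP. Its 3AP values were all below control and the PLX3AP values reached from below the 3AP range into the control range, with a log2 fold change of -0.42 in 3AP (SE 0.15, adjusted p = 0.165). Uqcrfs1, the Rieske iron-sulfur protein, was at -0.13 (SE 0.08, adjusted p = 0.511), Uqcrc1, a core protein, at -0.11 (SE 0.09, adjusted p = 0.621) and Uqcrh, the hinge protein that helps dock cytochrome c, at -0.10 (SE 0.09, adjusted p = 0.659). The values of these 3 in 3AP overlapped control.

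Complex IV reduces oxygen. Of its 18 tested nuclear genes 15 were lower in 3AP, with a median of -0.22, and 9 had no overlap with control, against the same 11.0% of all genes. Cox8a, a small subunit found in most tissues, measured 316, 296 and 353 CPM in control, 282, 270 and 251 in 3AP and 301, 311 and 289 in PLX3AP. The 3AP values did not overlap either other group, at a log2 fold change of -0.26 against control (SE 0.08, adjusted p = 0.088) and 0.17 in PLX3AP against 3AP (SE 0.08, adjusted p = 0.441). Ndufa4, first assigned to complex I and later to complex IV, measured 277, 257 and 304 CPM in control, 237, 216 and 222 in 3AP and 262, 238 and 198 in PLX3AP. The 3AP values were below control without overlap (-0.31, SE 0.10, adjusted p = 0.110), and those of PLX3AP spanned them. DESeq2 called 4 members lower in 3AP, Cox6a2, Cox8a, Ndufa4 and Ndufb2, and 1.81% of all genes.

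Complex V, ATP synthase, was lower in all 17 of its tested nuclear genes, with a median of -0.21 and 8 without overlap, again against 11.0%. Atp5b measured 1711, 1672 and 1803 CPM in control, 1555, 1533 and 1401 in 3AP and 1577, 1908 and 1749 in PLX3AP. Its 3AP values were the lowest 3 of the 9, at a log2 fold change of -0.21 against control (SE 0.09, adjusted p = 0.241) and 0.22 in PLX3AP against 3AP (SE 0.09, adjusted p = 0.294). The small membrane subunits Atp5md and Atp5mpl were lower by more. Atp5md measured 89.6, 87.6 and 106 CPM in control against 79.7, 71.1 and 78.5 in 3AP (-0.30, SE 0.10, adjusted p = 0.109) and Atp5mpl 67.5, 56.8 and 68.4 against 58.1, 44.5 and 48.5 (-0.35, SE 0.11, adjusted p = 0.108). Atp5md did not overlap, whereas 1 library of Atp5mpl did. Atp5d, the delta subunit of the central stalk, overlapped control widely at -0.05 (SE 0.10, adjusted p = 0.860).

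**Figure D2:**
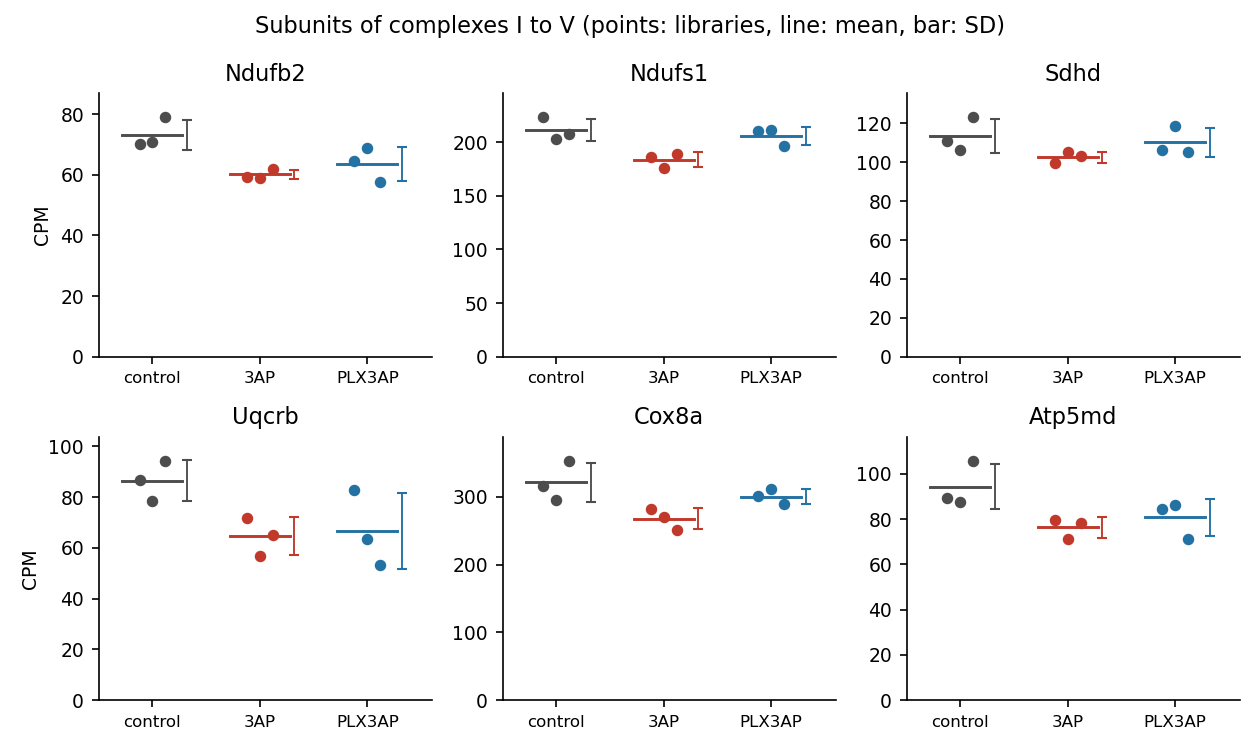
CPM of 6 nuclear subunits of complexes I to V in each library; points are libraries, lines group means and bars the SD (n = 3), with each axis starting at 0. In all 6 genes the 3AP values lie below the control values, by log2 fold changes of -0.15 (Sdhd) to -0.42 (Uqcrb), none of them called by edgeR without offsets over the 3 groups. Such separation held for 36 of the 93 tested nuclear genes, so these 6 do not stand for all of them.

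The 8 assembly and regulatory factors, which are not subunits of the finished enzymes, were mixed. In 3AP 6 were lower and 2 higher, with a median of -0.08. Ndufaf3, Ndufaf4 and Ndufaf5, named here after their values were seen, had all 3 values below control, where 11.0% of all genes did. Ndufaf5, a methyltransferase that modifies a core subunit of complex I, measured 35.7, 32.7 and 31.6 CPM in control, 29.9, 25.1 and 26.6 in 3AP and 31.4, 34.2 and 33.5 in PLX3AP, so that 3AP stood below both other groups (-0.29 against control, SE 0.09, adjusted p = 0.106).

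**Figure D3:**
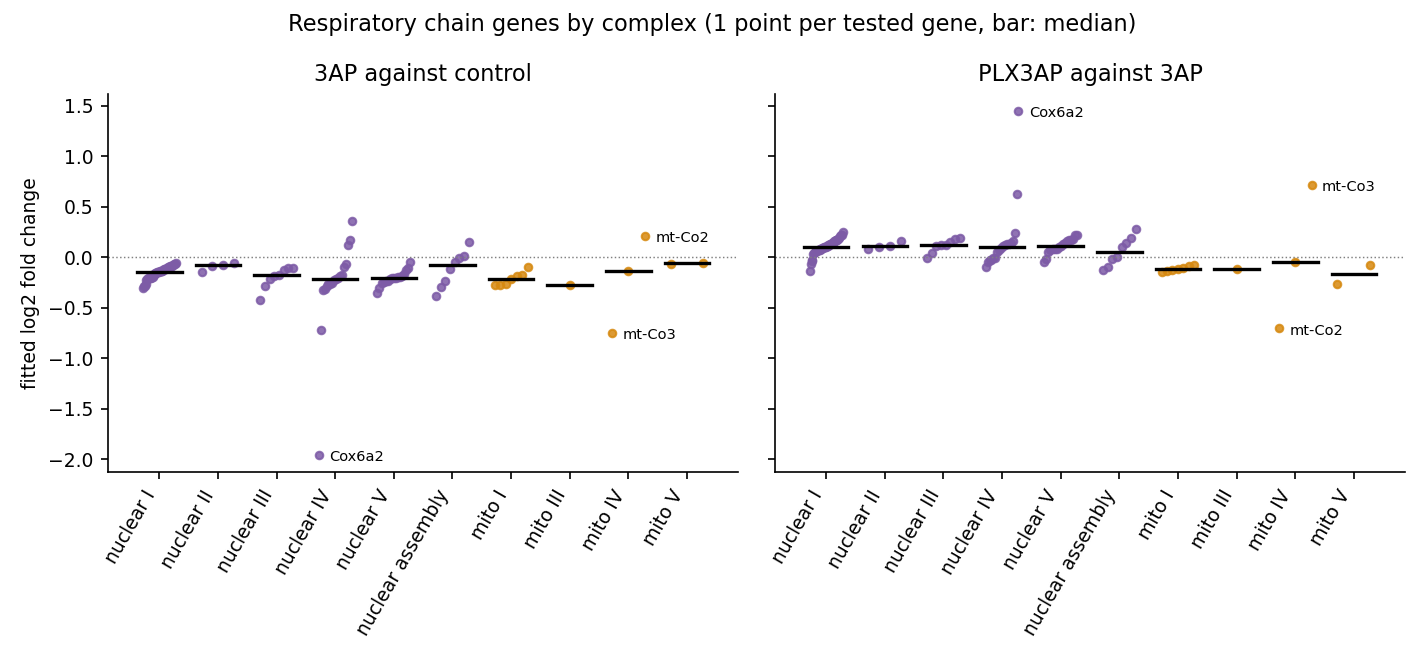
Fitted log2 fold change of each of the 106 tested genes by genome and complex, for 3AP against control and for PLX3AP against 3AP, which share the 3AP libraries; bars are medians. Nuclear medians lie between -0.22 and -0.08 in the first comparison and between 0.05 and 0.12 in the second, while mitochondrial medians are negative in both.

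Markers of other cells also differed between these libraries. Of all genes tested, 1.18% were called lower and 3.75% higher in 3AP against control. In PLX3AP against 3AP these shares were 3.16% and 0.577%. Microglial markers summed to 161 to 184 CPM in control, 331 to 407 in 3AP and 90.9 to 148 in PLX3AP. Of 10 such markers 7 were called higher in 3AP against control and 8 lower in PLX3AP against 3AP. Granule cell markers summed to 5641 to 5857 CPM in control, 4736 to 5337 in 3AP and 5410 to 5669 in PLX3AP, with 10 of 10 lower in 3AP, 0 called and a median of -0.16. Oligodendrocyte markers summed to 6050 to 7783, 5386 to 6642 and 6775 to 7565 CPM in the same order, with 5 of 6 lower in 3AP and 0 called. Erythroid markers summed to 255 to 379, 167 to 258 and 345 to 854 CPM, with 5 of 5 lower in 3AP against control (median -0.60) and 5 of 5 higher in PLX3AP against 3AP (median 1.29), all 5 of the latter at an unadjusted p under 0.05 and 0 called in either comparison. Endothelial markers summed to 367 to 403, 402 to 420 and 324 to 369 CPM, and in 3AP 3 of 6 were called higher and 1 lower. Astrocyte and Bergmann glia markers summed to 3510 to 3769, 3538 to 4506 and 3462 to 3691 CPM, and in 3AP 1 of 8 was called higher and 2 lower. Purkinje cell markers had 6 of 8 lower in 3AP and 0 called. None of the granule cell, microglial or oligodendrocyte markers was at 0. The part of these differences in the lower respiratory chain values was not tested.

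PLX3AP against 3AP gave the opposite sign for most nuclear genes. Of 93, 77 were higher and 16 lower in PLX3AP, with a median log2 fold change of 0.11 against -0.01 for all genes. The differences of single genes were small: edgeR called 0 of 93, 10 were higher and 0 lower at an unadjusted p under 0.05 (747 and 1258 of all 16634 genes), and DESeq2 also called 0. Over all genes 3.16% were called lower and 0.577% higher. All 3 values lay above 3AP for 18 of the 93, where 7.65% of all genes did so, and below for 0, against 9.22%. The same 3AP libraries enter the comparison with control, so the opposite signs are not independent of each other. With length offsets 13 were called higher against 1.80% of all genes, and with length and GC offsets 35 against 3.82%. The median was 0.05 without 3AP replicate 3 and 0.04 without PLX3AP replicate 2, with 19 and 22 of 93 lower.

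By complex the medians in PLX3AP against 3AP lay close together, at 0.11 for complexes I, II and V, 0.12 for complex III and 0.10 for complex IV. The genes of complex IV were the most divided, with 12 of 18 higher. Sdhc, with 122, 119 and 134 CPM in control, 125, 127 and 108 in 3AP and 124, 139 and 139 in PLX3AP, had the lowest p of complex II in this comparison, at 0.16 (SE 0.08, adjusted p = 0.504). Uqcrc1, with 322, 315 and 358 CPM in control, 320, 317 and 287 in 3AP and 308, 381 and 365 in PLX3AP, had the lowest of complex III, at 0.19 (SE 0.09, adjusted p = 0.426). In both genes PLX3AP overlapped 3AP by 1 library.

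PLX3AP and control had closer medians in the nuclear genes. Of 93, 64 were lower in PLX3AP and 29 higher, with a median of -0.06. EdgeR called 0, with 12 lower and 0 higher at an unadjusted p under 0.05 against 793 lower and 763 higher of all 16634 genes, and DESeq2 called 0; over all genes 0.0842% were called lower and 0.0361% higher. All 3 values lay below control for 5 of 93 and above for 1, against 6.42% and 7.84% of all genes. Without control replicate 3 the median was 0.01, with 40 of 93 lower. Cox7a2, the form of subunit 7a found in most tissues, measured 123, 111 and 130 CPM in control, 106, 99.4 and 99 in 3AP and 107, 105 and 86.3 in PLX3AP. Its libraries of both treated groups lay below control, at -0.26 in 3AP (SE 0.09, adjusted p = 0.156) and -0.29 in PLX3AP (SE 0.09, adjusted p = 0.353).

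Apart from mt-Co3 in PLX3AP against 3AP, the mitochondrial genes overlapped between all groups, and they varied widely within them. Their summed CPM was 36196, 43022 and 46632 in control replicates 1 to 3, 35670, 31287 and 43145 in 3AP and 49519, 29151 and 25765 in PLX3AP. PLX3AP thus held the highest and the lowest 2 of the 9 libraries. These sums, and the ratios that follow, leave out reads assigned to the nuclear copies. With the copies added, the sums ran from 39553 CPM in PLX3AP replicate 3 to 71572 CPM in PLX3AP replicate 1. The ratio of summed mitochondrial to summed nuclear CPM was 2.61, 3.22 and 3.03 in control, 2.69, 2.43 and 3.61 in 3AP and 3.72, 1.95 and 1.92 in PLX3AP. The pooled within-group SD of the library medians was 0.37 (log2) for the mitochondrial genes and 0.11 for the nuclear ones. A difference between groups the size of the nuclear one was therefore not detectable in the mitochondrial genes.

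In 3AP against control 12 of the 13 mitochondrial genes were lower, with a median log2 fold change of -0.18, in PLX3AP against 3AP 12 were lower with a median of -0.11, and in PLX3AP against control 13 were lower with a median of -0.31. EdgeR and DESeq2 called 0 of 13 in each comparison, and 0 had an unadjusted p under 0.05. Leaving out 1 library moved the median of 3AP against control from -0.18 to -0.046 (without 3AP replicate 2), -0.087 (without control replicate 3) or -0.37 (without 3AP replicate 3), and that of PLX3AP against control from -0.31 to -0.66 (without PLX3AP replicate 1), -0.13 (without PLX3AP replicate 3) or -0.20 (without control replicate 3). Where the nuclear genes were higher in PLX3AP than in 3AP, the mitochondrial genes were lower in the mean. That sign rested on single libraries: the median of PLX3AP against 3AP was -0.50 without PLX3AP replicate 1, 0.0081 without PLX3AP replicate 2, 0.097 without PLX3AP replicate 3 and 0.035 without 3AP replicate 3. With offsets for length and GC content it was 0.12, and the median of PLX3AP against control was then 0.00. The mitochondrial members had a median GC content of 37.1%, against 50.5% for all tested genes.

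Complex I has 7 mitochondrial genes, all of them core subunits, and in 3AP against control they ranged from -0.27 to -0.10. The subunit next to the ubiquinone channel, mt-Nd1, measured 3832, 4267 and 4880 CPM in control, 3526, 3020 and 4206 in 3AP and 4762, 2776 and 2401 in PLX3AP. The groups overlapped, with log2 fold changes of -0.27 in 3AP (SE 0.25, adjusted p = 0.655) and -0.38 in PLX3AP (SE 0.25, adjusted p = 0.648) against control. Without PLX3AP replicate 1, mt-Nd1 was called lower in PLX3AP than in control at -0.75 (adjusted p = 0.047). The subunits of the proton-pumping arm, mt-Nd2, mt-Nd4 and mt-Nd5, were at -0.22, -0.27 and -0.18 in 3AP against control, and mt-Nd6, the only protein gene on the minus strand, at -0.18, with adjusted p from 0.694 to 0.856. The last bases of mt-Nd5 (chrM:11742-13565) overlap mt-Nd6 (chrM:13552-14070), and no source used here says whether the counting used strand. mt-Cytb, the ubiquinol-oxidising subunit of complex III, measured 5070, 6117 and 6672 CPM in control, 4751, 4113 and 5918 in 3AP and 6899, 3641 and 3153 in PLX3AP. It followed the order of libraries seen in mt-Nd1, at -0.27 in 3AP against control (SE 0.29, adjusted p = 0.708).

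mt-Co1, the catalytic subunit of complex IV, carried the most counts of any member. It measured 16943, 20516 and 21514 CPM in control, 17392, 15716 and 20525 in 3AP and 23603, 14782 and 13488 in PLX3AP, again overlapping, at -0.14 in 3AP against control (SE 0.20, adjusted p = 0.795). Per length the order differed. mt-Atp8, a short subunit of ATP synthase, had the highest TPM of any member, 51285 ± 2168 in control (SD, n = 3), against 23806 ± 2313 for mt-Co1, although mt-Atp8 held only 229 to 431 CPM. Its TPM rests on a very short effective length, and the gene (chrM:7766-7969) overlaps mt-Atp6 (chrM:7927-8607).

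Most reads of 5 mitochondrial genes were assigned to their nuclear copies. Of the reads of both rows, the copy held 96.1 to 98.6% for mt-Co2 and Gm28661, 93.6 to 97.9% for mt-Co3 and Gm28437, 92.2 to 95.2% for mt-Atp6 and Gm10925, 90.2 to 94.1% for mt-Nd4l and Gm10222, and 80.0 to 87.5% for mt-Nd3 and Gm28438. It held 3.31 to 5.90% for mt-Co1 and Gm29216, and 0% for mt-Nd4 and Gm28439, which share 876 identical bases. As printed above, mt-Co2 and Gm28661 have the same bases throughout the compared stretch, so the deposited values for such rows show how the reads were divided and not how much each gene was transcribed. The copies together held 13789 to 22406 CPM.

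**Figure D4:**
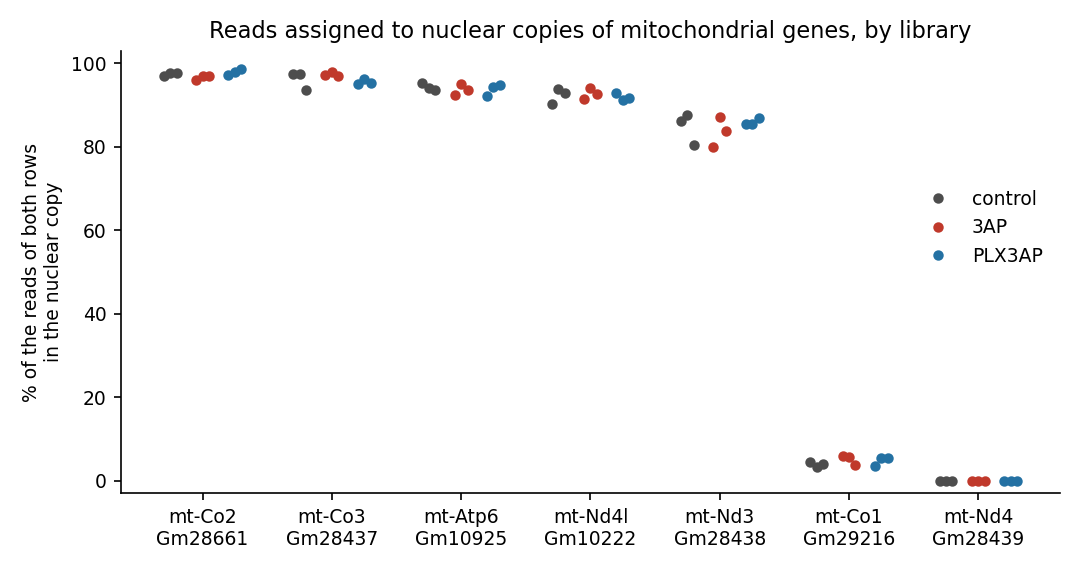
Share of the reads of both rows that was assigned to the nuclear copy, in percent, for 7 mitochondrial genes in each of the 9 libraries, coloured by group. The share is above 80% in all libraries for mt-Co2, mt-Co3, mt-Atp6 and mt-Nd4l, at 80.0% or more for mt-Nd3, below 6% for mt-Co1 and at 0% for mt-Nd4.

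The 2 subunits that stood out among the mitochondrial genes were those with the largest shares in a copy. mt-Co2, which receives electrons from cytochrome c, measured 180, 157 and 169 CPM in control, 223, 159 and 206 in 3AP and 209, 96.9 and 55.6 in PLX3AP, and was the only mitochondrial gene higher in 3AP than in control (0.22, SE 0.44, adjusted p = 0.864). mt-Co3 measured 195, 202 and 551 CPM in control, 203, 140 and 221 in 3AP and 407, 249 and 271 in PLX3AP, with all PLX3AP values above 3AP (0.72, SE 0.46, adjusted p = 0.653). With the copy added, mt-Co2 summed to 5900, 6622 and 7402 CPM in control, 5697, 5082 and 6733 in 3AP and 7528, 4755 and 3980 in PLX3AP. Its log2 fold changes then became -0.19 in 3AP against control and -0.11 in PLX3AP against 3AP, and those of mt-Co3 -0.15 and -0.04, close to the other mitochondrial genes. With all copies added, 13 of 13 were lower in 3AP than in control with a median of -0.19, and 0 were called.

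Shared reads also touched nuclear members. Ndufb4, an accessory subunit of complex I, is identical over 390 bases to Ndufb4c, which M21 annotates as a processed pseudogene on chromosome 15. Ndufb4c held 58.4 to 67.8% of the reads of both. Together they measured 62.9, 55.8 and 71.5 CPM in control, 58.3, 56.3 and 54.3 in 3AP and 62.1, 67.8 and 64.9 in PLX3AP, at -0.17 in 3AP against control (SE 0.09, adjusted p = 0.360) for the sum credited to Ndufb4. Atp5l, a membrane subunit of ATP synthase, lost 8.22 to 12.3% of such reads to Gm10221.

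Several subunits of complex IV come as a common form and a tissue form, and edgeR without offsets called 1 of these genes, the tissue form Cox6a2. Cox6a2, the heart and skeletal muscle form of subunit 6a (chr7:128205435-128206387, minus strand), measured 1.72, 1.69 and 2.88 CPM in control, 0.736, 0.244 and 0.630 in 3AP and 1.15, 1.22 and 2.05 in PLX3AP. The 3AP values were the lowest 3 of the 9, and control and PLX3AP overlapped. Cox6a2 fell in 3AP against control by 1.96 on the log2 scale (SE 0.43, adjusted p = 0.018 by edgeR), a 3.88-fold lower level that was lower in 3 of 3 libraries. In PLX3AP against 3AP its log2 fold change was 1.45 (SE 0.43, adjusted p = 0.110, not called). The counts were few, 33 to 59 per control library and 5 to 15 per 3AP library, and the call was lost without control replicate 3 (adjusted p = 0.077) or without 3AP replicate 2 (adjusted p = 0.069). It was kept in 19 of the 23 alternatives; the other 2 that lost it were limma-trend on log2(TPM + 1) with no filter and length offsets without control replicate 3. Over the 23 alternatives its log2 fold change ran from -2.24 to -1.55 and its adjusted p from 0.00079 to 0.077.

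Cox6a1, the form of subunit 6a made in brain and most tissues, measured 271, 266 and 343 CPM in control, 284, 267 and 226 in 3AP and 250, 315 and 279 in PLX3AP. These values overlapped, at -0.18 in 3AP against control (SE 0.12, adjusted p = 0.506), while with effective length and GC offsets Cox6a1 was called lower, at -0.23 (SE 0.05, edgeR adjusted p = 0.00569). Per length Cox6a1 stood at a mean of 1459 TPM over the 9 libraries and Cox6a2 at 5.26 TPM, so Cox6a2 made up a small part of subunit 6a transcripts. Cox4i2, an isoform induced by low oxygen, measured 2.26, 1.90 and 2.49 CPM in control, 2.11, 3.90 and 2.52 in 3AP and 2.53, 2.98 and 2.96 in PLX3AP, and Cox4i1 553, 539 and 670, 597, 591 and 495, and 543, 692 and 627 in the same order. For Cox4i2 all PLX3AP values lay above control, the 1 nuclear member of which this held. Neither isoform of subunit 4 was called, at 0.36 (SE 0.26, adjusted p = 0.550) and -0.07 (SE 0.11, adjusted p = 0.829) in 3AP against control.

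**Figure D5:**
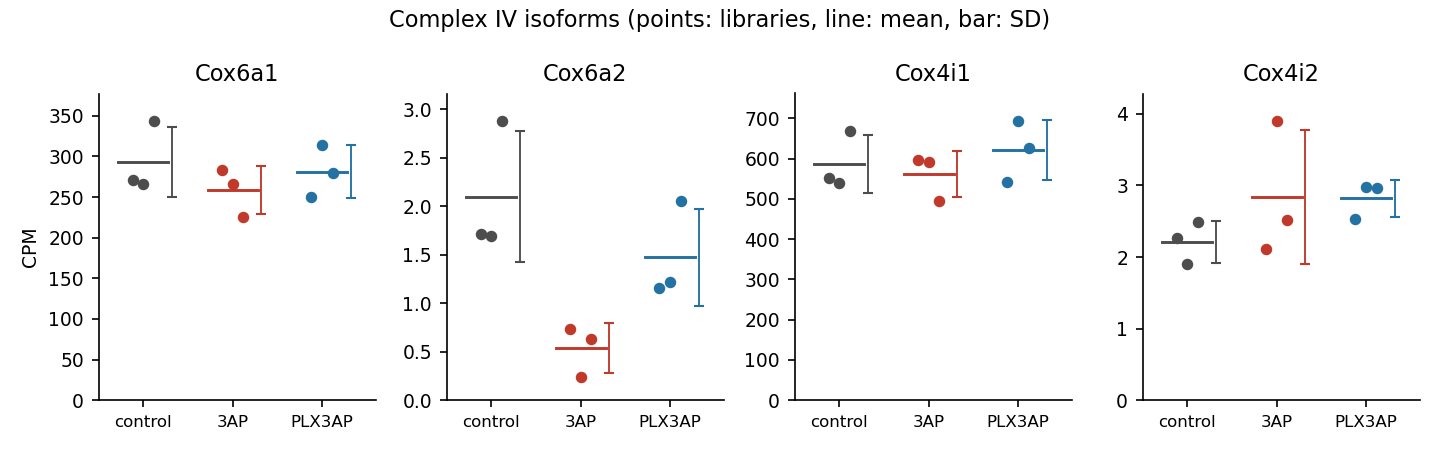
CPM of the isoforms of subunits 6a and 4 of complex IV in each library; points are libraries, lines group means and bars the SD (n = 3), with each axis starting at 0 on its own scale. Cox6a2 in 3AP lies at 0.244 to 0.736 CPM, below the other 6 libraries, whereas the groups overlap for Cox6a1 and Cox4i1 and, for Cox4i2, 3AP overlaps both other groups.

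The remaining isoforms were not called by edgeR without offsets; with length offsets Atp5g1 and Atp5g3 were called lower in 3AP, and with length and GC offsets also Cox6b1. Cox7a1, the muscle form of subunit 7a, was at 2.38 to 2.82 CPM in 3AP, below 2.85 to 3.51 in control (-0.32, SE 0.22, adjusted p = 0.526). Cox7a2l, a relative of subunit 7a that takes part in joining complexes III and IV, was 1 of the 5 nuclear genes higher in 3AP, at 126 to 134 CPM against 112 to 132 (0.12, SE 0.08, adjusted p = 0.525). Ndufa4l2, a paralog of Ndufa4 induced by low oxygen, was another, at 0.17 (SE 0.23, adjusted p = 0.769). Cox6b1 and its testis form Cox6b2 were at -0.18 (SE 0.10, adjusted p = 0.410) and -0.10 (SE 0.24, adjusted p = 0.884), and Cox7b2, at 1.07 to 1.18 CPM in control and 0.578 to 0.875 in 3AP, at -0.72 (SE 0.36, adjusted p = 0.339). The 3 genes Atp5g1, Atp5g2 and Atp5g3, which encode the same subunit c of the rotor ring, lay at -0.21, -0.21 and -0.23, with Atp5g3 at 902 TPM, Atp5g1 at 553 TPM and Atp5g2 at 19.0 TPM in the mean of the 9 libraries.

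Promoters were read because 88 of the 93 nuclear genes had a lower mean in 3AP. RefSeq's table (GRCm38.p6) held promoters for 76 of the tested nuclear members. The 250 bases before the start site were searched on both strands for the consensus of NRF1 and for the letters CCGGAAG of ETS factors such as GABP and AAGATGGC of YY1, with overlapping matches allowed. The NRF1 letters were found in 14 of 76 (18.4%), against 4.23% of all 27025 genes of the table, the ETS letters in 14 of 76 (18.4%) against 7.83%, and the YY1 letters in 1 of 76 (1.32%) against 1.83%. Any of them occurred in 25 of 76 (32.9%) against 12.8%. The 27025 genes were not limited to those tested here. Ndufb2, Cox8a, Ndufaf5, Atp5md and Ndufa4, among the members with the lowest unadjusted p in 3AP against control (0.0048 to 0.0084 by edgeR), carried none of these letters. Whether matches go with lower values in 3AP was not tested. A match is a description of the sequence and not a bound site. The upstream sequences of 3 members with NRF1 letters are shown, for Ndufs6 (chr13:73328483-73328732), Atp5h (chr11:115419920-115420169) and Cox6a1 (chr5:115348959-115349208), all on the minus strand and read 5′ to 3′ with matches in capitals; Atp5h was picked after its values were seen:
Ndufs6: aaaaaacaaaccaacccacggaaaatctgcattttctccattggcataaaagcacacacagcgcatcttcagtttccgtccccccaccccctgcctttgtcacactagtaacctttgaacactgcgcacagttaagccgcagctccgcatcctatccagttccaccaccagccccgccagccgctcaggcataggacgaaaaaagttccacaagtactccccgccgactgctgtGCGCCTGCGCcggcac
Atp5h: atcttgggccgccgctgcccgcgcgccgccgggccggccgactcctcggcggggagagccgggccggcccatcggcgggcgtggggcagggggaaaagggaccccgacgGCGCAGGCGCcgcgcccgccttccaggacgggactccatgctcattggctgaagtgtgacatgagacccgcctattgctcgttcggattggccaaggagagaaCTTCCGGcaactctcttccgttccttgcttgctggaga
Cox6a1: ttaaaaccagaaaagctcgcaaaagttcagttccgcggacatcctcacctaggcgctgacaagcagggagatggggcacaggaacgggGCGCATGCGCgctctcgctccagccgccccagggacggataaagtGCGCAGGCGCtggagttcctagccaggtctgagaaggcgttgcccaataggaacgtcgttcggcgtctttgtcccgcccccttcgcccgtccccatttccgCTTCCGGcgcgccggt
Cox6a1 carried 2 NRF1 matches and 1 ETS match, Atp5h 1 of each and Ndufs6 1 NRF1 match. Their log2 fold changes in 3AP against control were -0.18, -0.20 and -0.31, and none was called by edgeR without offsets (adjusted p = 0.506, 0.236 and 0.171).

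Genes that work with the chain were counted by lists. Of 18 genes for cytochrome c, ubiquinone synthesis and electron transfer flavoprotein, 12 were lower in 3AP and 6 higher. Called lower were 2, Cycs and Coq10b, and called higher 0. Over all genes tested 49.7% were lower, 1.18% were called lower and 3.75% called higher. All 3 values in 3AP lay below control for 4 of the 18 and above for 1, against 11.0% and 13.7% of all genes. Cycs, somatic cytochrome c, measured 182, 166 and 170 CPM in control, 132, 119 and 144 in 3AP and 155, 141 and 121 in PLX3AP, and fell by 0.39 on the log2 scale in 3AP (SE 0.10, adjusted p = 0.035). Coq10b, a ubiquinone-binding protein, measured 35.2, 37.3 and 34.8 CPM in control, 23.9, 25.4 and 23.0 in 3AP and 30.9, 26.7 and 24.3 in PLX3AP, and fell by 0.57 (SE 0.10, adjusted p = 0.0043). In both genes 3AP and PLX3AP lay below control without overlap.

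Regulators of the pathway were divided. Of 14 regulators of mitochondrial biogenesis, among them Ppargc1a, Nrf1, Gabpa and Yy1, 7 were lower and 7 higher in 3AP, with a median of 0.02 and 0 called. The one with the lowest p was Esrrb, an orphan nuclear receptor, at 0.27 (SE 0.13, adjusted p = 0.291). Of 28 genes that copy, transcribe and process mitochondrial DNA and its RNA, 20 were lower with a median of -0.08 and 0 called, and Polg, the mitochondrial DNA polymerase, had the lowest p at 0.22 (SE 0.08, adjusted p = 0.143). Other assembly factors had 35 of 40 lower with a median of -0.10 and 0 called, led by Coa6 at -0.38 (SE 0.12, adjusted p = 0.111). Beside these lists, 49.7% of all genes tested were lower in 3AP and 1.18% were called lower.

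Pathways that feed the chain were counted in the same way, beside 49.7% of all genes lower in 3AP and 1.18% called lower. Of 21 genes of the tricarboxylic acid cycle and pyruvate dehydrogenase, 15 were lower in 3AP, with a median of -0.10 and 0 called. All 3 values in 3AP lay below control for 10 of the 21 and above for 0, against 11.0% and 13.7% of all genes. The one with the lowest p was higher in the mean: Idh2, the mitochondrial isocitrate dehydrogenase that uses NADP, measured 26.2, 24.4 and 36.3 CPM in control, 46.3, 43.1 and 33.3 in 3AP and 31.5, 36.3 and 38.1 in PLX3AP, at 0.50 against control (SE 0.16, adjusted p = 0.124), with overlap. Of 17 glycolytic genes 14 were lower with a median of -0.13, and 2 were called lower. All 3 values in 3AP lay below control for 9 of the 17 and above for 0, beside the same shares of all genes. Eno1, an enolase, measured 748, 718 and 813 CPM in control, 569, 580 and 538 in 3AP and 659, 824 and 774 in PLX3AP. It fell in 3AP by 0.43 on the log2 scale (SE 0.09, adjusted p = 0.013) and rose in PLX3AP against 3AP by 0.42 (SE 0.09, adjusted p = 0.018), with 3AP below the other 6 libraries. Hk2, a hexokinase, measured 20.1, 19.9 and 17.2 CPM in control, 10.7, 13.0 and 14.0 in 3AP and 16.0, 15.7 and 13.9 in PLX3AP, and fell in 3AP by 0.60 (SE 0.13, adjusted p = 0.013). In PLX3AP against 3AP 16 of 17 glycolytic genes were higher, with a median of 0.19. Of all 16634 genes 8024 were higher there, with a median of -0.01, and 0.577% were called higher.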

How the data were processed

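Total RNA of mouse cerebellum was sequenced in 9 libraries. RSEM, HISAT2, StringTie and fastp are listed with mm10 per the submitters' processing notes; no source used here gives their versions, the annotation release or the strandedness. One set of columns deposited by the authors holds expected counts, estimated reads per gene without normalisation, and the other holds TPM, scaled by the authors to transcript length and library total. Rows without a name (0.526 to 0.660% of counts) were left out.

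After rounding of expected counts, edgeR 4.0.16 (R 4.3.3) was run: filterByExpr kept 16634 genes, TMM scaled the libraries (factors 0.986 to 1.02), and a quasi-likelihood model of the 3 groups took in all 9 libraries. P-values were adjusted over all tested genes by the Benjamini-Hochberg method, and a call needs an adjusted p under 0.05. CPM use the TMM library sizes, and log2 fold changes and SE come from that fit. The precision of a single gene was set by the spread between libraries (biological coefficient of variation 0.126) rather than by counting, except for rows with few counts. All pairs of libraries within a group differed beyond sampling noise (chi-square divided by its degrees of freedom, 4.93 to 29.5).

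Alternatives were DESeq2 1.42.0, its size factors in edgeR, scaling without mitochondrial rows, no filter, fits of 2 groups only, limma-trend 3.58.1 on log2(TPM + 1) and log2(TPM + 0.1), a replicate block, offsets from splines of effective length (counts divided by TPM), and leaving out each library. After seeing the data, offsets for length and GC content, both offsets without control replicate 3, and nuclear copies added to their members were tried. Copies were found with BLAST 2.17.0 in GENCODE M21 transcripts; 114 of 120 members matched an M21 symbol. Named members are all mitochondrial genes, those called, for each complex those with the lowest p per comparison, the highest and lowest TPM and the most positive and negative log2 fold change in 3AP, and the isoform pairs; from other lists those called and the one with the lowest p in 3AP against control. Members and lists were chosen with earlier results of these data known.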

Additional observations from a re-analysis of the deposited data

How the results depend on the processing

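The direction of the nuclear median was negative in 3AP against control and positive in PLX3AP against 3AP in all 23 alternatives run (19 planned and 4 chosen after seeing the data). Against 1 member called lower in 3AP against control, DESeq2 and the fit with no filter on low counts called 4 each, the fit of only the 2 groups compared 3, limma-trend on log2(TPM + 1) with no filter 0, length offsets 27 (16 without control replicate 3) and length and GC offsets 48 (35 without control replicate 3). Leaving out 1 library gave 0 to 3 calls, with 0 without control replicate 3 and without 3AP replicate 2. Of all genes, 1.81% were called lower by DESeq2, 3.31% with length offsets and 7.67% with length and GC offsets. Without control replicate 3 the shares with these offsets were 1.71% and 4.99%. Against 0 members called in PLX3AP against 3AP, the fit with no filter called 1 (Cox6a2, higher), length offsets 13 (11 without control replicate 3), and length and GC offsets 35 (34 without control replicate 3). Leaving out 1 library gave 0 to 1, the 1 being mt-Co2, lower without PLX3AP replicate 1. Of all genes, 1.80% were called higher there with length offsets and 3.82% with length and GC offsets, with all 9 libraries. Against 0 members called in PLX3AP against control, leaving out 1 library gave 0 to 3, the 3 without PLX3AP replicate 1 being Uqcrb, Ndufaf4 and mt-Nd1, all lower. Length and GC offsets without control replicate 3 gave 1 there, mt-Co3, which turned from -0.03 to 0.88 (edgeR adjusted p = 0.026). Leaving out 1 library, the mitochondrial median of PLX3AP against 3AP ran from -0.50 to 0.097. That of PLX3AP against control was 0.075 with length and GC offsets without control replicate 3. The cause of these shifts was not tested. For the other alternatives the share of all genes called is not given here. Their counts of members therefore cannot be set beside a background.

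Same-numbered libraries of different groups correlated at -0.19 to 0.08 in their deviations from group means. For differently numbered ones this was -0.10 to 0.21. No pairing by number was seen, but with 3 libraries a group these values cannot exclude a shared batch. With the replicate block edgeR called 1 member in 3AP against control and 0 in each of the other comparisons, as without it. Of 3243 values of the tested named genes under alternatives, 3008 kept a call or, uncalled, lay within 1 SE of their value, 137 uncalled ones moved by more, 93 gained a call, 4 lost it and 1 reversed. Counts of 0 to 59 per library limit Cox6a2, Cox8b and Cox8c, and 3 libraries a group limit every comparison. Other members at a low CPM, among them Cox7b2 and Cox4i2, also rest on few counts.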
